A study of Homo sapiens with 6 samples.

Results

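The heat shock proteins and cytosolic chaperones of bladder cancer (BC) cells were examined in the gene expression table of 3 cell lines treated with quisinostat. The members were 52 genes taken by name from a list that holds the HSP70, HSP90 and small heat shock proteins, their J-proteins and co-chaperones, the CCT ring, prefoldin and the heat shock factors. All 52 names were found, and they stood on 51 of the 10066 assembled loci, because HSPA1A and HSPA1B shared 1 locus. The list is wider than its cytosolic label. HSPA9, HSPD1, HSPE1, TRAP1 and DNAJA3 act in mitochondria, and HSPB11 encodes a component of intraflagellar transport (IFT25) despite its heat shock protein name.

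RNA was sequenced from RT4 and RT112 cells, which carry an FGFR3-TACC3 fusion, and from SW780 cells, whose label gives the fusion as FGFR3-BAIBP2L1. Each established line received DMSO or quisinostat, an inhibitor of histone deacetylases (HDAC), for 2 days. RT4 cells received 50 nM, RT112 cells 10 nM and SW780 cells 25 nM. Dose and line therefore cannot be told apart. There was 1 library for each line and treatment, and a ratio within a line therefore has no replicate check. Values are FPKM, in which fragments are divided by transcript length and by library size, so levels can be set side by side between genes. Read counts are not given and the depth is unknown. Gene positions are those of GENCODE 29 on GRCh38.

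Chaperones bind unfolded or partly folded proteins and help them to reach or keep their shape. HSP70 proteins work in cycles of ATP hydrolysis that J-proteins start and exchange factors such as BAG proteins end, and they hand many clients, protein kinases among them, to HSP90. Under protein stress, HSF1 forms trimers, binds heat shock elements and drives the genes of many of these chaperones. HSP90 activity is in turn controlled by acetylation, and for that reason the family is of interest under HDAC inhibition.

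The lines expressed epithelial genes. All 15 epithelial and urothelial markers had a row, and EPCAM lay between 44.7 and 94.6 FPKM in the 6 libraries. UPK3A was listed at 0 in both RT112 libraries. KRT5, whose locus also carries the name KRT6A, stayed at 0.448 FPKM or less in RT4 and SW780 cells. UPK3A therefore had no ratio. Over the other 14 markers the median log2 ratio, quisinostat over DMSO, was -1.22, 0.70 and -0.75 for RT4, RT112 and SW780 cells. Of 6 fibroblast markers, COL1A1 and COL3A1 had a row. COL1A1 lay between 0.0342 and 0.173 FPKM with DMSO and between 0.474 and 1.45 FPKM with quisinostat. COL3A1 went from 1.12 to 6.19 FPKM in RT4 cells, 0.0896 to 0.334 in RT112 cells and 2.74 to 1.31 in SW780 cells. The leukocyte and endothelial markers are not analysed here. Among 5 genes known to respond to HDAC inhibitors, all were above a log2 ratio of 0.3 in RT112 cells, as were 36.0% of all loci. GSN, which encodes gelsolin, was above 0.3 in each line (0.93, 2.79 and 1.502 in RT4, RT112 and SW780 cells). In SW780 cells its levels were low, at 0.130 FPKM with DMSO and 0.367 with quisinostat. In the same order of lines, CDKN1A had 0.12, 1.36 and 0.52, H1F0 had 1.08, 0.45 and -0.04, and CLU had 0.09, 2.62 and -0.32. In RT4 cells 2 of the 5 were above 0.3 (40.3% of all loci) and 1 was below -0.3 (33.5% of all loci). In SW780 cells 2 were above (32.8% of all loci) and 2 were below (28.2% of all loci). TUBB3 was lower in both lines (-1.90 and -0.61), and its locus also carries the name TCF25.

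Inverted pairs and triplets of heat shock units, the parts of heat shock elements, were frequent in the promoters of the members. RefSeq promoters (GRCh38.p14, 250 bases before to 50 after each start) were at hand for 44 members. The search covered the inverted pairs GAANNTTC and TTCNNGAA, each of which reads the same on both strands, and triplets, in which 3 alternating GAA and TTC units are set 2 bases apart. Every triplet also holds pairs. At least 1 promoter window held a pair in 21 of 44 member genes (47.7%), against 16.2% of all 27305 genes. A triplet was found in 7 of 44 members (15.9%), against 0.608% of all genes. These were HSPA8, HSPD1, HSP90AA1, HSP90AB1, DNAJA1, DNAJB6 and CHORDC1, and in DNAJA1 it lay after the start site. A match is a description of the letters and not of binding, and only exact units were searched, so imperfect ones were not found. The triplets before the start are shown here because most of them lie at abundant members, with the elements in capitals. HSPA8 has another one further upstream, which is not printed. Positions are on GRCh38, and each sequence runs 5′ to 3′ on the strand of its gene.

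HSP90AB1, chr6:44247758-44247810, plus strand: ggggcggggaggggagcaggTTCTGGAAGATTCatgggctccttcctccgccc
HSP90AB1, chr6:44247811-44247863, plus strand: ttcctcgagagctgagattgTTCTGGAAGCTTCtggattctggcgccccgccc
HSP90AA1, chr14:102087112-102087140, minus strand: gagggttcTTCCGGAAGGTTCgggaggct
HSPA8, chr11:123062171-123062199, minus strand: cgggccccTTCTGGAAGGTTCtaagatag
HSPD1, chr2:197500062-197500090, minus strand: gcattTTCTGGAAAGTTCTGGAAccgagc
DNAJB6, chr7:157336853-157336905, plus strand: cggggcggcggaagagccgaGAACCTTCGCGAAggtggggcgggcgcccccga
CHORDC1, chr11:90223084-90223112, minus strand: ccgGAAAATTCGCGAAGGTTCCTGAAacg

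The 7 loci with a triplet did not move upwards together. In RT112 cells 6 of the 7 were below a log2 ratio of -0.3, as were 25.2% of all loci, and their median was -0.57. In RT4 cells 3 were above 0.3 (40.3% of all loci) and none was below -0.3 (33.5% of all loci), with a median of 0.11. In SW780 cells 2 were below (28.2% of all loci) and 1 was above (32.8% of all loci), with a median of -0.24. The 13 loci with a pair but no triplet had medians of 0.17, -0.10 and -0.03 in RT4, RT112 and SW780 cells. In RT112 cells 6 of them were below -0.3 (25.2% of all loci) and 6 above 0.3 (36.0% of all loci). The 23 matched loci with neither a pair nor a triplet had medians of 0.04, -0.34 and -0.08. HSPE1 is counted among these 23, although the HSPD1 triplet lies within its gene (chr2:197499994-197503457), outside its promoter window. After GC correction by the curve over all loci, the medians of the triplet loci were -0.30, -0.47 and -0.31.

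The list holds some of the most abundant transcripts of these cells. The members made up between 1.44% and 1.95% of the summed FPKM of a library. HSP90AB1, HSPA8 and HSP90AA1 had the highest means over the 6 libraries, at 616, 589.5 and 480.5 FPKM, and HSPA8 stood above at least 99.5% of all loci in each library. HSPA8, the HSP90 genes, HSPD1, HSPE1 and several CCT genes have processed pseudogenes elsewhere in the genome, and how reads that match several places were counted is not given in the sources used here. At the lower end were BAG2, HSPA4L and HSF2, with means of 2.2, 2.72 and 2.90 FPKM. Before treatment the members differed less between lines than all loci together, but they also stood at higher levels. With DMSO their median was 38.0, 38.8 and 36.7 FPKM in RT4, RT112 and SW780 cells, against 6.86, 6.59 and 6.93 for all loci. No set of loci matched for level was compared here. The highest DMSO level over the lowest had a median of 1.504 over the 51 loci, against 1.96 over the 9112 loci above 0 in all libraries, and 13 members (25.5%) differed more than 2-fold between lines, against 48.6% of all loci. HSPB8 was among the exceptions, at 1.16, 7.61 and 17.5 FPKM in RT4, RT112 and SW780 cells with DMSO.

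The response was taken as the log2 ratio of FPKM, quisinostat over DMSO, within a line, and a ratio past 0.3 in either direction was counted as higher or lower. The study used -0.3 for lower genes, and the same size was taken here for higher ones. In RT112 cells most members on the list had lower levels. There, 28 of 51 members (54.9%) were below -0.3, against a background of 25.2% of all loci, and 13 were above 0.3, against 36.0%. In RT4 cells 10 were lower (background 33.5%) and 16 were higher (background 40.3%). In SW780 cells 11 were lower (background 28.2%) and 11 were higher (background 32.8%). The median ratio of the members was 0.10, -0.38 and -0.07 for RT4, RT112 and SW780 cells, and that of all loci was 0.08, 0.06 and 0.04. As well expressed genes could differ from the rest, the 2203 loci with a mean of at least 20 FPKM were examined too. In RT112 cells 29.6% of these were below -0.3, and 24 of the 36 members at that level were. In bulk RNA, fewer cells with a transcript and less of it per cell cannot be told apart.

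**Figure D1:**
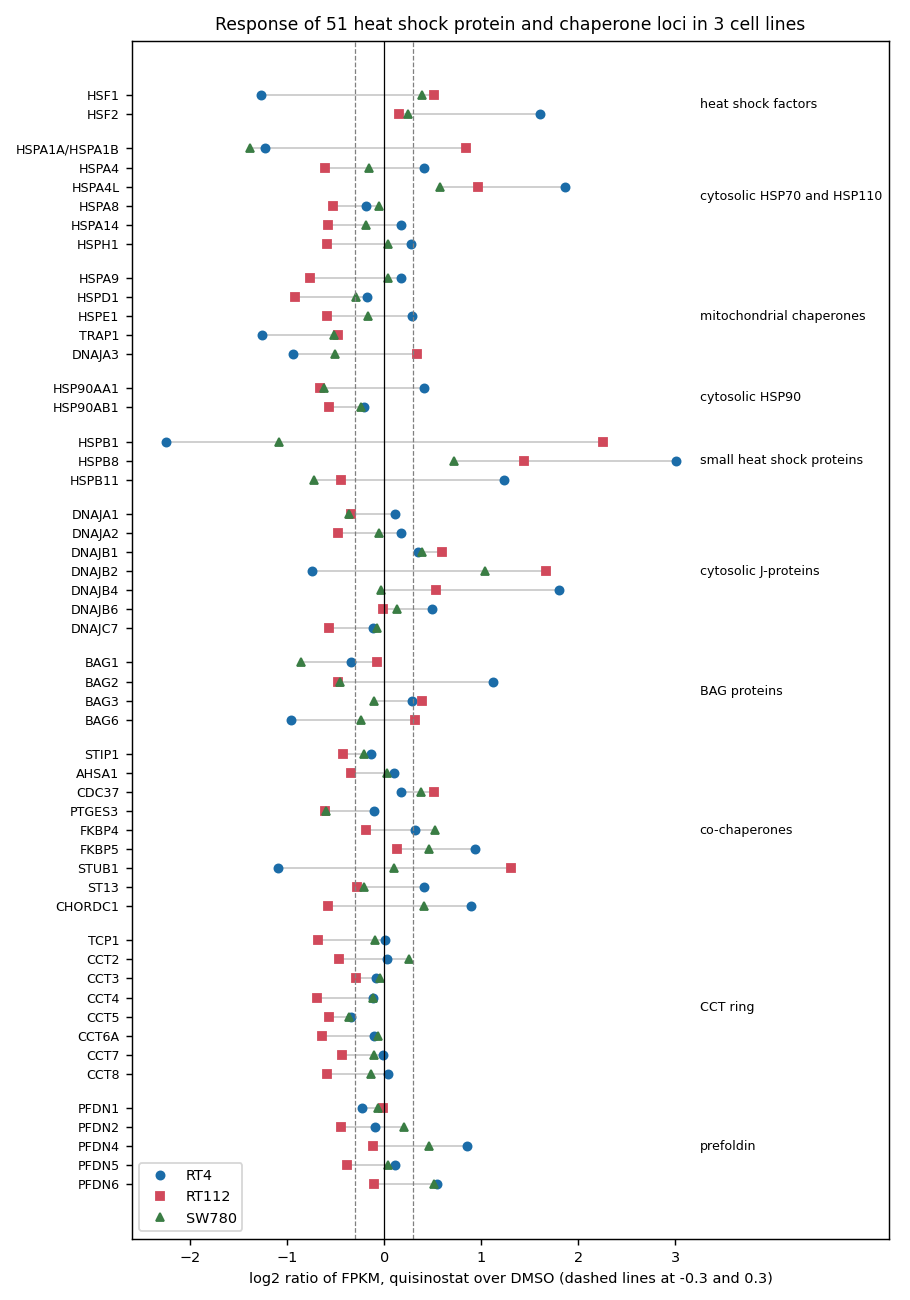
Log2 ratio of FPKM, quisinostat over DMSO, on the horizontal axis for each of the 51 loci, grouped by role. Circles are RT4, squares RT112 and triangles SW780 cells, with 1 pair of libraries per point. The RT112 squares lie left of -0.3 for 28 loci, and HSPB1 spans the widest range, from -2.25 to 2.26.

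Summed over the 51 loci, the FPKM went from 4427 to 4410 in RT4 cells, 4911 to 3725 in RT112 cells and 4745 to 4268 in SW780 cells. The share of the library that these genes took was 1.68% with DMSO and 1.74% with quisinostat in RT4 cells. In RT112 cells it was 1.91% and then 1.44%, and in SW780 cells 1.95% and then 1.80%. On the log2 scale the sum of the members moved by -0.40 in RT112 cells, and that of all loci by 0.01.

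In RT4 and RT112 cells the ratios moved with the GC content of the transcripts, in members as in all loci. In SW780 cells the correlation over the members was near 0. Across the 51 members, ratio and GC content had Spearman correlations of -0.53, 0.48 and -0.03 for RT4, RT112 and SW780 cells, and across 8407 loci of -0.49, 0.44 and -0.22. Genes are not independent replicates and share their libraries, so these values are a description. The 11 members with at least 55% GC had median ratios of -0.96, 0.51 and -0.11 in that order of lines, and the 20 members under 45% GC had 0.22, -0.58 and -0.08. The counts over all members, and the values of single members where a call ended or turned, are therefore also given after the GC curve of all loci was subtracted in each line. Of 89 single ratios past 0.3 in either direction over the 3 lines, 70 were past it in the same direction after correction, and 19 ratios were past it only after correction.

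**Figure D2:**
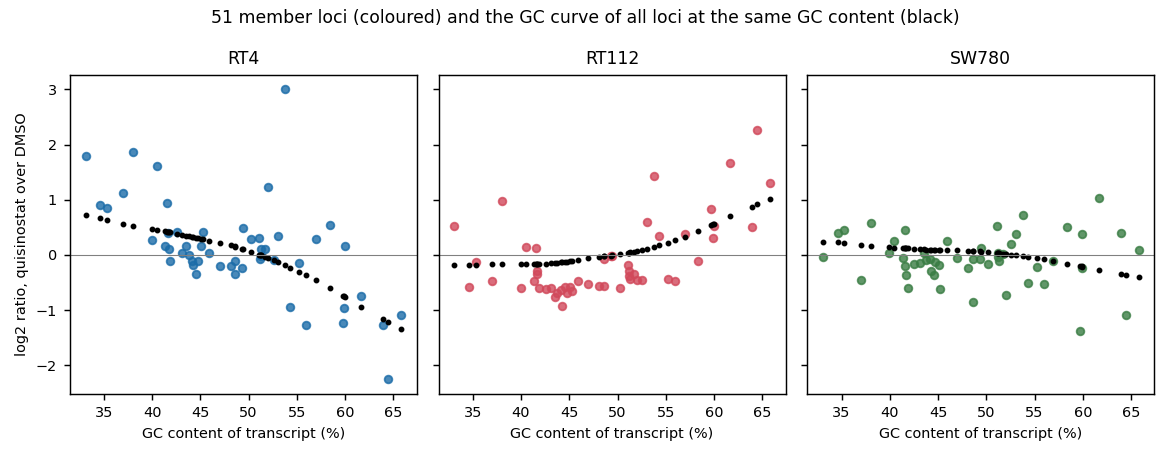
Log2 ratio of FPKM (vertical axis) against the GC content of the transcript in percent (horizontal axis) for the 51 members in each line. Coloured points are members and black points give the curve over all loci at the same GC content. The curve falls in RT4 cells and rises in RT112 cells, and many RT112 points between 40 and 55% GC lie below it.

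After GC correction, 30 members were below -0.3 in RT112 cells (background 24.7%) and 7 were above 0.3 (background 28.1%), with a median of -0.38. In RT4 cells the counts turned to 16 lower (background 33.4%) and 13 higher (background 35.6%), and the median moved from 0.10 to -0.01. In SW780 cells they were 14 lower (background 28.6%) and 10 higher (background 30.5%), with a median of -0.14. The lower median in RT112 cells was thus as large after correction, and the direction in RT4 cells was not kept.

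Few members passed the limit in the same direction in each line. TRAP1, on a locus shared with CREBBP, and CCT5 were below -0.3 in all 3 lines, and 4.99% of all loci were. HSPA4L, HSPB8 and DNAJB1 were above 0.3 in all 3 lines, and 11.4% of all loci were. After GC correction 5 members were lower in all 3 lines (HSPD1, TRAP1, HSP90AB1, PTGES3 and CCT5), with a background of 7.72%, and the same 3 were higher, with a background of 11.3%. An absolute ratio of at least 1 in at least 1 line was reached by 12 members (23.5%), against a background of 43.5%. That background was not matched for level.

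With the lines as replicates, limma on log2(FPKM + 1) with cell line as a block found no member at an adjusted p under 0.05 after Benjamini-Hochberg adjustment over 9430 loci. The background at that limit was 0 percent, since none of all loci passed. At an unadjusted p under 0.05, TRAP1 and CCT5 were lower (background 4.16%) and HSPB8 and DNAJB1 were higher (background 9.68%). The lowest adjusted p of a member was 0.262, for HSPB8. In what follows, higher and lower describe values in single pairs of libraries.

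HSF1, the main heat shock transcription factor, had 10.5 FPKM with DMSO and 4.33 with quisinostat in RT4 cells. It went from 9.64 to 13.8 FPKM in RT112 cells and 4.20 to 5.50 in SW780 cells. It was lower in RT4 cells and higher in the others, with log2 ratios of -1.27, 0.51 and 0.39. Its transcript has 63.9% GC, and the corrected ratios were -0.11, -0.36 and 0.73, so the direction in RT112 cells was reversed. HSF2, its relative, went from 1.76 to 5.37 FPKM in RT4 cells, a log2 ratio of 1.61. In RT112 and SW780 cells its ratios were 0.15 and 0.25, inside the limit.

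The inducible HSP70 locus of HSPA1A and HSPA1B, a pair of nearly identical genes in the HLA region (chr6:31815464-31817946 and chr6:31827735-31830255), had opposite values between lines. It went from 65.4 to 27.9 FPKM in RT4 cells, 13.2 to 23.6 in RT112 cells and 31.7 to 12.2 in SW780 cells. The log2 ratios were -1.23, 0.84 and -1.38. After GC correction the ratio in RT112 cells was 0.29, inside the limit, and the others were -0.49 and -1.18. Reads of the 2 genes cannot be told apart in the table. Both have the same inverted pair before the start, here in capitals.

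HSPA1A, chr6:31815426-31815455, plus strand: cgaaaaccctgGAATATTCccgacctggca
HSPA1B, chr6:31827613-31827660, plus strand: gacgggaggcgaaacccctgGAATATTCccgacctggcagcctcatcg

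HSPA8, the constitutive HSP70, was far more abundant. It went from 692 to 604.5 FPKM in RT4 cells, 607 to 419.7 in RT112 cells and 618 to 596 in SW780 cells. Its log2 ratio was -0.53 in RT112 cells and was inside the limit in RT4 (-0.19) and SW780 cells (-0.05). The level of HSPA8 over that of the HSPA1A and HSPA1B locus went from 10.6 to 21.7 in RT4 cells, 46.0 to 17.8 in RT112 cells and 19.5 to 49.1 in SW780 cells. After GC correction the ratios of HSPA8 and of the inducible locus lay close together in RT4 cells (-0.42 and -0.49) and differed in RT112 cells (-0.47 and 0.29) and SW780 cells (-0.14 and -1.18).

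HSPH1 and HSPA4, HSP110 proteins that act as exchange factors of HSP70, were lower in RT112 cells, with log2 ratios of -0.59 and -0.61. HSPH1 had 38.8 FPKM with DMSO and 25.7 with quisinostat there, and its ratios in RT4 and SW780 cells were 0.27 and 0.04. HSPA4 had 0.41 in RT4 cells, which was 0.02 after GC correction, and -0.16 in SW780 cells. HSPA14, a ribosome-associated HSP70 relative, had -0.58 in RT112 cells and lay inside the limit in the other lines.

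HSPA4L (chr4:127781821-127840733), another HSP110 gene, was the exception in this group. It went from 1.29 to 4.67 FPKM in RT4 cells, 0.312 to 0.611 in RT112 cells and 3.81 to 5.65 in SW780 cells. All 3 lines had higher values with quisinostat, with log2 ratios of 1.86, 0.97 and 0.57, although the quisinostat value of RT112 cells was below the DMSO values of the other lines. In limma its log2 difference was 0.69 with a standard error of 0.33 (adjusted p = 0.407). Its promoter held an inverted pair but no triplet.

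HSPA4L, chr4:127782141-127782170, plus strand: tttccagatctTTCTCGAAcccgcagcttc

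The HSP90 genes were examined next, as HSP90 is a target of deacetylases. HSP90AA1 (chr14:102080738-102139699), the stress-inducible form, went from 518 to 690.1 FPKM in RT4 cells, 437 to 277 in RT112 cells and 582 to 378.5 in SW780 cells. It was higher in RT4 cells and lower in the others, with log2 ratios of 0.41, -0.66 and -0.62. After GC correction the ratio in RT4 cells was 0.13, inside the limit. HSP90AB1 (chr6:44246166-44253888), the constitutive form, went from 683 to 592 FPKM in RT4 cells, 825 to 557 in RT112 cells and 562 to 477 in SW780 cells. It had a lower value in each line, with log2 ratios of -0.21, -0.57 and -0.24, of which the one in RT112 cells passed the limit. After GC correction all 3 did, at -0.38, -0.53 and -0.31.

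The balance of the HSP90 forms differed between lines. HSP90AA1 over HSP90AB1 went from 0.759 to 1.17 in RT4 cells, 0.530 to 0.497 in RT112 cells and 1.035 to 0.793 in SW780 cells. The sum of both went from 1201 to 1282 FPKM in RT4 cells, 1263 to 833 in RT112 cells and 1145 to 856 in SW780 cells. In limma, the log2 differences were -0.29 with a standard error of 0.26 for HSP90AA1 (adjusted p = 0.625) and -0.34 with a standard error of 0.17 for HSP90AB1 (adjusted p = 0.430). These are RNA levels, and acetylation of the HSP90 protein was not measured here.

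**Figure D3:**
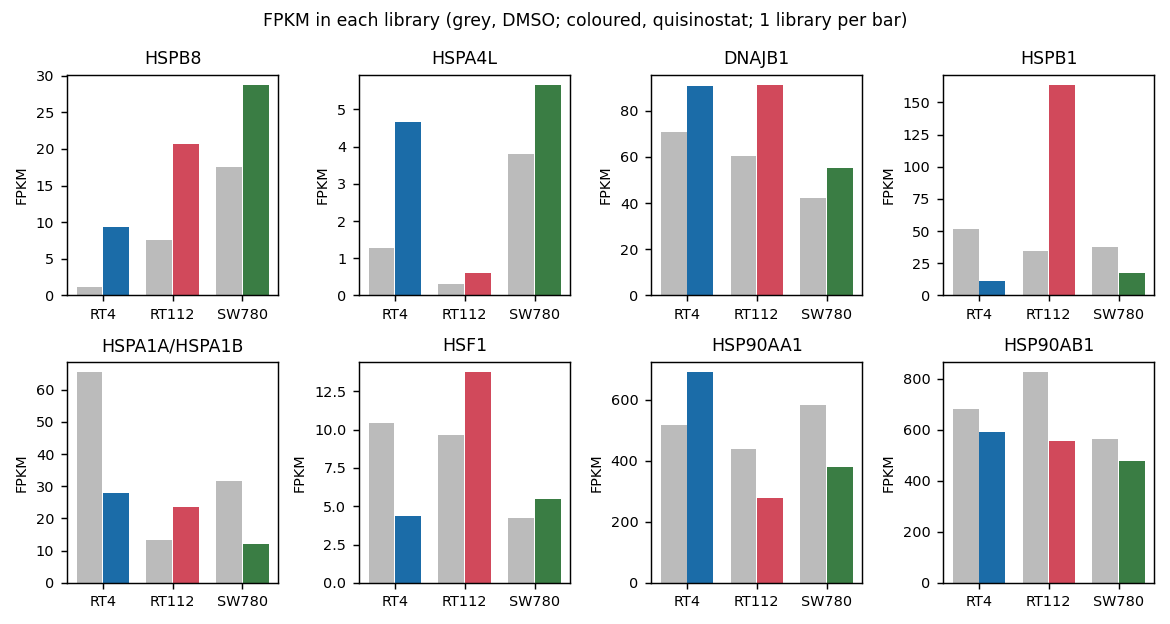
FPKM (vertical axis, from 0) of 8 loci in each library, with DMSO in grey and quisinostat in colour for RT4, RT112 and SW780 cells on the horizontal axis. Each bar is 1 library, so there are no error bars. HSPB8, HSPA4L and DNAJB1 are higher with quisinostat in each line, while HSPB1 is lower in RT4 and SW780 cells and higher in RT112 cells.

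The small heat shock proteins bind unfolded proteins without ATP. HSPB1 (HSP27, chr7:76302544-76304295) went from 52.0 to 10.9 FPKM in RT4 cells, 34.2 to 163.5 in RT112 cells and 37.6 to 17.7 in SW780 cells. It was 0.211-fold of DMSO in RT4 cells, 4.78-fold in RT112 cells and 0.470-fold in SW780 cells. The DMSO levels of the lines lay close together, whereas the quisinostat level of RT112 cells stood above every other library. The log2 ratios were -2.25, 2.26 and -1.09. The transcript has 64.5% GC, and after GC correction the ratios were -1.03, 1.34 and -0.73, smaller but in the same directions. The epithelial markers had medians of the same signs in the same lines, given above, and neither their part nor that of GC content in the HSPB1 values was tested. Over the 3 lines in limma, the log2 difference of HSPB1 was -0.32 with a standard error of 0.80 (adjusted p = 0.879).

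HSPB8 (HSP22, chr12:119178642-119221131), which works with BAG3 in the removal of misfolded proteins by autophagy, had the highest member ratio in RT4 cells. It went from 1.16 to 9.34 FPKM in RT4 cells, 7.61 to 20.6 in RT112 cells and 17.5 to 28.7 in SW780 cells. Each line had a higher value with quisinostat, at 8.03, 2.71 and 1.64-fold. The mean was 8.76 ± 8.22 FPKM with DMSO and 19.6 ± 9.73 FPKM with quisinostat (SD, n = 3 lines), and the groups overlapped, since the DMSO value of SW780 cells lay above the quisinostat value of RT4 cells. Within lines, limma gave a log2 difference of 1.42 with a standard error of 0.33 (unadjusted p = 0.00598, adjusted p = 0.262). GC correction hardly changed the ratios, which were 3.19, 1.29 and 0.74 after it. HSPB11, the IFT25 gene, had log2 ratios of 1.23, -0.45 and -0.73 in RT4, RT112 and SW780 cells.

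The promoters of HSPB8 and HSPB1 each held an inverted pair and no triplet. They are shown here because the 2 genes were both higher in RT112 cells and went in opposite directions in RT4 and SW780 cells.

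HSPB8, chr12:119178832-119178861, plus strand: tcatcacctccGAATATTCctgtgacagga
HSPB1, chr7:76302471-76302518, plus strand: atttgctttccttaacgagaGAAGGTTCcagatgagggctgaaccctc

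The J-proteins start the ATP cycle of HSP70. DNAJB1 (HSP40, chr19:14514770-14529770) went from 70.9 to 90.4 FPKM in RT4 cells, 60.5 to 91.05 in RT112 cells and 42.2 to 55.1 in SW780 cells. Each line had a higher value with quisinostat, with log2 ratios of 0.35, 0.59 and 0.39. The mean was 57.9 ± 14.5 FPKM with DMSO and 78.9 ± 20.6 FPKM with quisinostat (SD, n = 3 lines), so the groups overlapped, and the limma log2 difference within lines was 0.44 with a standard error of 0.17 (unadjusted p = 0.0414, adjusted p = 0.348). Inverted pairs lay before its start in both windows shown, of which the nearer was at positions -47 to -40.

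DNAJB1, chr19:14518447-14518494, minus strand: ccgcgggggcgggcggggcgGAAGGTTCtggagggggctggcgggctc
DNAJB1, chr19:14518426-14518455, minus strand: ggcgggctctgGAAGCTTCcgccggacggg

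DNAJB2, a J-protein with ubiquitin interaction motifs, had log2 ratios of -0.75, 1.66 and 1.04 in RT4, RT112 and SW780 cells. It went from 10.1 to 6.02 FPKM in RT4 cells, 4.93 to 15.6 in RT112 cells and 7.32 to 15.0 in SW780 cells. Its transcript has 61.6% GC, and the lower value in RT4 cells turned to a corrected ratio of 0.19. DNAJB4 went from 1.67 to 5.81 FPKM in RT4 cells, a log2 ratio of 1.80, with 0.53 in RT112 and -0.03 in SW780 cells. DNAJA1, DNAJA2 and DNAJC7 were lower in RT112 cells (-0.35, -0.48 and -0.57), and DNAJA1 was also lower in SW780 cells (-0.36). After GC correction DNAJA1 was at -0.18 in RT112 cells. DNAJB6 was above the limit in RT4 cells only, at 0.49, and at 0.385 after GC correction.

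BAG proteins release the substrate of HSP70 by nucleotide exchange. BAG3, the stress-inducible partner of HSPB8, went from 11.4 to 13.85 FPKM in RT4 cells, 19.7 to 25.7 in RT112 cells and 21.9 to 20.3 in SW780 cells. Its log2 ratios were 0.28, 0.38 and -0.11, and the one in RT112 cells passed the limit. After GC correction the ratio passed it in RT4 cells (0.735) and not in RT112 cells (0.05). BAG1 was lower in RT4 (-0.35) and SW780 cells (-0.86). BAG2 went from 1.265 to 2.76 FPKM in RT4 cells, a log2 ratio of 1.12, and had -0.48 and -0.46 in RT112 and SW780 cells. BAG6 had -0.96, 0.31 and -0.24 in RT4, RT112 and SW780 cells, and after GC correction all 3 lay inside the limit, at -0.21, -0.24 and -0.03. The locus of BAG2 also carries the name ZNF451, and that of BAG6 carries C6orf47.

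Co-chaperones of HSP90 followed no common direction. STIP1 (HOP), which links HSP70 to HSP90, had 111, 114 and 135 FPKM with DMSO and 101, 84.4 and 116.5 FPKM with quisinostat in RT4, RT112 and SW780 cells. Its ratio passed the limit in RT112 cells, at -0.43. PTGES3 (p23), which stabilises the closed form of HSP90, had -0.61 and -0.60 in RT112 and SW780 cells and -0.10 in RT4 cells, where it was at -0.51 after GC correction. AHSA1, the activator of the HSP90 ATPase, had -0.34 in RT112 cells and lay inside the limit elsewhere. CDC37, which brings kinases to HSP90, had positive ratios, with 0.17, 0.52 and 0.38 in RT4, RT112 and SW780 cells, and with 0.93, -0.05 and 0.59 after GC correction. ST13 (HIP) had 0.40 in RT4 cells, -0.28 in RT112 cells and -0.21 in SW780 cells. After GC correction its ratio in RT4 cells was -0.01 and that in SW780 cells was -0.33.

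The immunophilins FKBP4 and FKBP5 bind HSP90 in steroid receptor complexes. FKBP5 had a higher value in each line, from 7.0 to 13.4 FPKM in RT4, 2.35 to 2.58 in RT112 and 2.89 to 3.96 in SW780 cells. The log2 ratios were 0.94, 0.13 and 0.46, so RT112 cells were inside the limit. FKBP4 had 0.31, -0.19 and 0.52. CHORDC1, whose promoter holds a run of heat shock units printed above, went from 11.4 to 21.2 FPKM in RT4 cells, 14.5 to 9.68 in RT112 cells and 18.65 to 24.7 in SW780 cells. Its ratios were 0.90, -0.58 and 0.41, and the corrected ones 0.23, -0.41 and 0.18. STUB1 (CHIP), the ubiquitin ligase that acts on chaperone clients, had -1.10, 1.31 and 0.10. Its transcript has the highest GC content of the members, 65.8%, and the corrected ratios were 0.24, 0.30 and 0.50.

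The CCT ring is built of 8 subunits and folds actin and tubulin. In RT112 cells all of its subunits had lower values with quisinostat, and 7 of 8 passed the limit (background 25.2%). The log2 ratios of these 7 lay between -0.70 (CCT4) and -0.44 (CCT7). CCT3, at -0.29, lay just inside the limit. The median was -0.58 in RT112 cells, against -0.05 in RT4 and -0.10 in SW780 cells. The summed FPKM of the ring went from 1312 to 918 in RT112 cells, 955 to 915 in RT4 cells and 1301 to 1258 in SW780 cells.

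**Figure D4:**
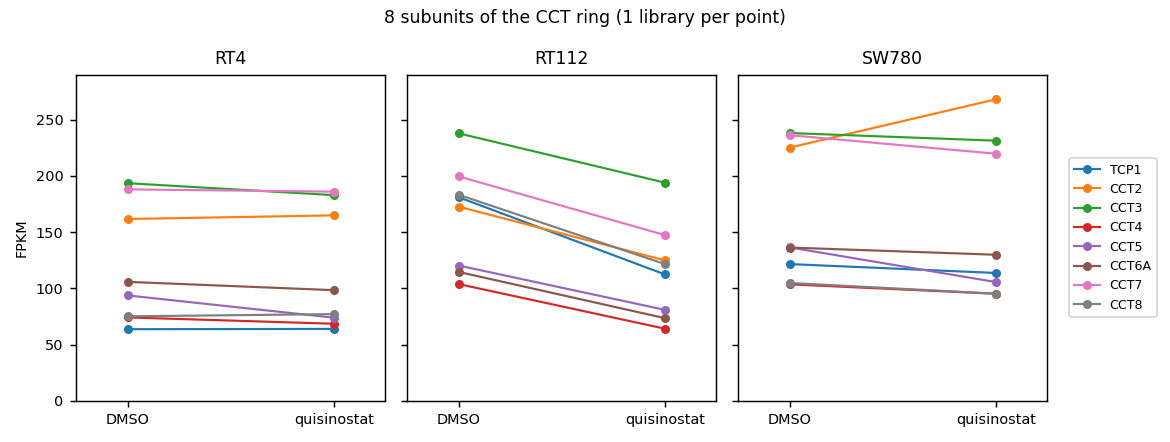
FPKM (vertical axis, from 0) of the 8 CCT subunits with DMSO and quisinostat in each line, with 1 library per point and 1 colour per subunit. All 8 subunits slope downwards in RT112 cells, where the sum went from 1312 to 918 FPKM.

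Levels of single subunits in RT112 cells went from 181 to 112 FPKM for TCP1 (CCT1) and from 172.5 to 125 for CCT2. CCT3 went from 238 to 194, CCT4 from 104 to 64.1 and CCT5 from 120.2 to 80.8 FPKM. CCT6A went from 114.5 to 73.4, CCT7 from 199 to 147 and CCT8 from 183 to 121.5 FPKM. Subunits enter the ring in equal numbers, yet their RNA levels spread over 2.29-fold with DMSO and 3.03-fold with quisinostat in these cells.

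In RT4 and SW780 cells the ring moved little. CCT5 (chr5:10249921-10266412) was the only subunit past -0.3 there, from 93.6 to 73.8 FPKM in RT4 and 136 to 105.5 in SW780 cells. With -0.57 in RT112 cells, its log2 ratios were -0.34, -0.57 and -0.37. In limma its log2 difference was -0.42 with a standard error of 0.16 (unadjusted p = 0.0432, adjusted p = 0.350). CCT2 went the other way in SW780 cells, from 225 to 268 FPKM, a ratio of 0.25 and inside the limit. After GC correction, 8 of 8 subunits were below -0.3 in RT112 cells (background 24.7%) and 5 of 8 in RT4 cells (background 33.4%). In SW780 cells 1 of 8 was (background 28.6%). The medians were then -0.47, -0.33 and -0.18 in that order.

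Prefoldin delivers unfolded chains to the CCT ring, and the 5 prefoldin genes among the members had a median log2 ratio of -0.12 in RT112 cells. After GC correction that median was -0.43, and 3 of 5 were below -0.3 (background 24.7%). PFDN2 and PFDN5 had -0.45 and -0.38 in RT112 cells (-0.54 and -0.43 after correction), and PFDN1, PFDN4 and PFDN6 lay between -0.12 and -0.01. PFDN4 was higher in RT4 and SW780 cells (0.85 and 0.46), and both ratios lay inside the limit after GC correction (0.22 and 0.24). PFDN6 was also higher in both (0.55 and 0.51), and remained so after correction (1.14 and 0.67), when it was below the limit in RT112 cells (-0.54). PFDN1 lay inside the limit in each line, and was at -0.34 in RT4 cells after correction. VBP1, a further prefoldin gene, is not on the member list and not in these counts. Its ratios were 0.05, -0.48 and 0.04 in RT4, RT112 and SW780 cells, and -0.47, -0.31 and -0.12 after correction.

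Among the 5 mitochondrial chaperones, 4 were below -0.3 in RT112 cells (background 25.2%). The medians were -0.18, -0.59 and -0.29 in RT4, RT112 and SW780 cells. HSPD1 (HSP60) went from 277 to 146 FPKM in RT112 cells, a log2 ratio of -0.92, which was the lowest of all members in these cells. It went from 203 to 179.0 FPKM in RT4 cells and 229 to 188 in SW780 cells, with ratios of -0.18 and -0.29. HSPE1 (HSP10), the lid of the HSP60 chamber, went from 39.4 to 26.1 FPKM in RT112 cells, a ratio of -0.59, with 0.28 and -0.17 in RT4 and SW780 cells. Its locus also carries the names HSPE1-MOB4 and MOB4. HSPA9 (mortalin) had -0.76 in RT112 cells and lay inside the limit elsewhere.

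TRAP1 (chr16:3651639-3717597), the mitochondrial HSP90, had lower values in each line. Its locus also carries the name of its neighbour CREBBP, so the values cannot be assigned to TRAP1 alone. The locus went from 7.97 to 3.32 FPKM in RT4 cells, 8.56 to 6.15 in RT112 cells and 7.37 to 5.15 in SW780 cells. All quisinostat values were below all DMSO values, with means of 7.97 ± 0.593 FPKM and 4.87 ± 1.44 FPKM (SD, n = 3 lines). The log2 ratios were -1.27, -0.48 and -0.52, and limma gave a log2 difference of -0.64 with a standard error of 0.24 (unadjusted p = 0.0403, adjusted p = 0.346). DNAJA3, the J-protein partner of mortalin, had -0.94, 0.34 and -0.50. Its ratio in RT112 cells was 0.17 after GC correction. Without the 5 mitochondrial loci, 24 of 46 members were below -0.3 in RT112 cells (background 25.2%), with a median of -0.35. After GC correction 26 were (background 24.7%), with the same median.

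Chaperones of the endoplasmic reticulum (ER), which serve secreted proteins and follow the unfolded protein response, had other values. Of 15 such loci, 11, 2 and 7 were above 0.3 for RT4, RT112 and SW780 cells (background 40.3%, 36.0% and 32.8%). In that order, 2, 1 and 1 were below -0.3 (background 33.5%, 25.2% and 28.2%). The medians were 0.70, -0.02 and 0.29. After GC correction 12, 2 and 9 were above 0.3 (background 35.6%, 28.1% and 30.5%). Below -0.3 were then 0, 3 and 1 (background 33.4%, 24.7% and 28.6%). The ER HSP70 gene HSPA5 (BiP) had log2 ratios of 0.70, -0.27 and 0.82. The largest mean ratio in this list was that of DNAJB9, with 1.35, 0.39 and 1.12, and the smallest was that of CRELD2, with -0.81, 0.07 and -0.11. None of the 15 passed an adjusted p of 0.05 in limma, and 3 were higher at an unadjusted p under 0.05 (background 9.68%). The difference between the cytosolic and the ER genes was not tested.

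Over all further lists of the pathway, the ER genes included, 61 of 94 names had a row and 59 loci had a ratio. HDAC6, which deacetylates HSP90, is not analysed here. The medians were 0.20, -0.02 and 0.11 in RT4, RT112 and SW780 cells. In the same order, 16, 10 and 10 were below -0.3 (background 33.5%, 25.2% and 28.2%). Above 0.3 were 26, 15 and 18 (background 40.3%, 36.0% and 32.8%). After GC correction 14, 12 and 10 were below -0.3 (background 33.4%, 24.7% and 28.6%). Above 0.3 were then 18, 10 and 20 (background 35.6%, 28.1% and 30.5%). DNAJC2, a ribosome-associated J-protein, was lower in all 3 lines (-0.53, -1.09 and -0.83), as were 4.99% of all loci. Higher in all 3 were 4 loci (background 11.4%), among them HSPA13, an HSP70 relative of the microsomes, with 1.79, 0.45 and 1.59.

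**Figure D5:**
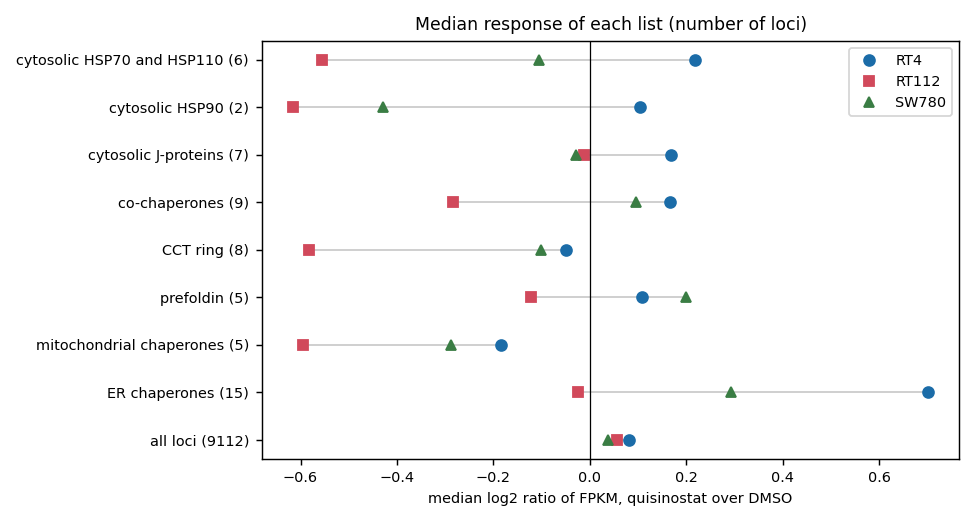
Median log2 ratio of FPKM, quisinostat over DMSO (horizontal axis), for each group of loci, with the number of loci in brackets. Circles are RT4, squares RT112 and triangles SW780 cells. The CCT ring lies at -0.58 in RT112 cells, and the ER chaperones lie at 0.70 in RT4 and -0.02 in RT112 cells.

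The 3 lines ranked the members differently. Across the 51 loci, the Spearman correlation of the ratios was -0.01 between RT4 and RT112 cells, 0.40 between RT4 and SW780 cells and 0.32 between RT112 and SW780 cells. After GC correction it was 0.33, 0.59 and 0.30 in that order. Each line has its own DMSO library. The correlations are over loci and not over replicates, and are given as a description.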

How the data were processed

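Per the labels, the authors took polyadenylated RNA from RT4, RT112 and SW780 cells and made stranded libraries. The processing notes of the submitters name CASAVA 1.8.2, Trimmomatic 0.36, HISAT2 2.2.1, SAMtools 1.15.1, StringTie 2.2.1 and the build GRCh38. The annotation and options are not given in the sources used here. The deposited values are FPKM, which the authors scaled to transcript length and mapped fragments, with no GC correction stated. Depth is unknown, and no interval from counts was computed.

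The table has 10515 rows, read as 10066 loci. Samples were grouped by their labels, and the quisinostat and DMSO libraries were paired by cell line. Plain log2 ratios, with no pseudocount, were taken over the 9112 loci above 0 in all 6 libraries. Fold changes from limma 3.58.1 (R 4.3.3) are on the log2(FPKM + 1) scale, which understates low genes. That fit used 9430 loci with a mean of at least 1 FPKM, a mean-variance trend, cell line as a block and Benjamini-Hochberg adjustment. A lowess curve (span 0.3, statsmodels 0.14.6) of ratio on GC content of the longest protein-coding GENCODE 29 transcript was subtracted for the GC correction (8407 loci, 92.3%, all 51 members among them). Scripts ran in Python 3.11.15 with pandas 2.3.3, and both steps were tested on simulated data.

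The members and lists were chosen with earlier results of these data known. Genes were named by rule: members past 0.3 in the same direction in all 3 lines, members with an absolute ratio of at least 1 in a line, and a fixed set of factors, chaperones and the CCT subunits. All other members were given by name and range as the rule asks, with values of single lines chosen after they were seen. Further pathway genes were given as counts with the largest and smallest mean ratio. Outside the rule for further genes, HSPA5, VBP1, EPCAM, KRT5, UPK3A, COL1A1, COL3A1, GSN, CDKN1A, H1F0, CLU and TUBB3 were named after their values were seen. Alternatives were pseudocounts, filters, centring, rescaling, GC correction, single-name loci, other limits, leaving out a line and other limma settings. The view of loci with a mean of at least 20 FPKM was added after seeing the data.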

Additional observations from a re-analysis of the deposited data

Results flagged for a closer look

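Some members were below -0.3 in 1 line and above 0.3 in another. There were 12 such loci among the 51 members (23.5%), against 29.3% of all loci, and 5 after GC correction (9.80%), against 18.2%. The shares of all loci were not matched for level. With 1 library for each line and treatment, the difference between lines was not tested for any of them.

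The span between the highest and the lowest log2 ratio of the 3 lines was 4.51 for HSPB1, with -2.25, 2.26 and -1.09 in RT4, RT112 and SW780 cells. It was 2.41 for DNAJB2 (2.413) and also for STUB1 (2.405), and 2.22 for the HSPA1A and HSPA1B locus. DNAJB2 and STUB1 were lower in RT4 and higher in RT112 cells, and neither was lower in any line after GC correction. The span was 1.96 for HSPB11, 1.78 for HSF1 and 1.60 for BAG2. HSPB1, HSPB11 and BAG2 also had opposite values after GC correction, between the same lines. HSF1 had them between other lines, with -0.11, -0.36 and 0.73 in RT4, RT112 and SW780 cells. PFDN6 had opposite values only after correction.

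For CHORDC1 the span was 1.48, with a higher value in RT4 and SW780 cells and a lower one in RT112 cells. It was 1.28 for BAG6 (1.278) and also for DNAJA3 (1.276), both lower in RT4 and higher in RT112 cells. For HSP90AA1 it was 1.07 and for HSPA4 it was 1.021, both higher in RT4 and lower in RT112 cells. Each of these 5 lay past the limit in 1 direction at most after GC correction.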

How the results depend on the processing

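The count of members lower in all 3 lines, 2 as reported, was 1 after rescaling to a common sum, 1 over single-name loci, 5 after GC correction and 0 at limits of 0.5 and 1. The count higher in all 3 lines, 3 as reported, was 0 at a limit of 1 and 2 in several other settings: HSPA4L was lost with a pseudocount of 1 and with a mean of at least 5 FPKM, and DNAJB1 with centring on the median and at a limit of 0.5. Leaving out each line in turn gave 2 to 7 lower and 4 to 8 higher members (7 and 6 without RT4, 6 and 8 without RT112, 2 and 4 without SW780 cells), where fewer lines had to pass. The GC correction reversed HSF1 (-0.36), BAG6 (-0.24) and CDC37 (-0.047) in RT112 cells and DNAJB2 (0.19), STUB1 (0.24) and ST13 (-0.012) in RT4 cells. A ratio past 0.3 that turned its sign was counted as reversed, also where it moved by less than the SD of the same gene over the lines. HSF1 in RT112 cells, with an SD of 0.996, was such a case. Of 765 values of the 51 loci under 5 alternatives for pseudocount, scaling and GC, 6 were reversed, all by GC correction. Of the others, 21 moved by more than that SD and 738 by less. That SD is wide for genes with opposite lines, so the count does not measure kept calls. HSPB1 in RT4 cells moved from -2.25 to -1.03 after GC correction, within its SD of 2.34. By the limit of 0.3, GC correction left 18 of 89 ratios inside it and brought 19 others past it. The cause of these changes was not tested.

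In limma no member passed an adjusted p of 0.05 under any setting. At an unadjusted p under 0.05, no replicate block left 0 members lower and 0 higher (lowest adjusted p = 0.973), and the GC correction with the block gave 5 lower and 3 higher (lowest adjusted p = 0.135). Without RT4 cells there were 4 and 3, without RT112 cells 3 and 3, and without SW780 cells 0 and 1. The lowest adjusted p of a member ranged from 0.131 to 0.973 over the settings. FPKM without counts leaves the error of low genes such as HSPA4L, HSF2 and BAG2 unknown.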

Other observations

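DNAJC12, a J-protein that assists the aromatic amino acid hydroxylases, was in the further lists and was named after its values were seen. It was listed at 0 in RT4 cells with DMSO and had 11.8 FPKM with quisinostat. In RT112 cells it went from 0.215 to 3.34 FPKM, and in SW780 cells from 0.666 to 11.6 FPKM. All quisinostat values were thus above all DMSO values. In limma on log2(FPKM + 1) its unadjusted p was 0.000656 and its adjusted p was 0.226, so it missed the limit after adjustment over all loci. It has no plain ratio in RT4 cells, and was for that reason outside the counts of loci past 0.3.

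Among the ER chaperones, DNAJB11 and MANF, a J-protein and a secreted factor of the unfolded protein response, were also named after their values were seen. DNAJB11 had log2 ratios of 1.137, 0.05 and 1.145 in RT4, RT112 and SW780 cells, and MANF had 1.07, 0.03 and 1.18. Both were higher in RT4 and SW780 cells, and inside the limit in RT112 cells. Their adjusted p in limma was 0.343 each.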
